A study of Chlorocebus sabaeus with 12 samples.

Results

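The zinc finger genes of chromosome 19 were followed in RNA of the African green monkey kidney line COS-1, hybridised to Agilent whole human genome arrays. A member was a gene name made of ZNF, a number and at most 1 letter, with a probe that the array design places on human chromosome 19. These were 192 of the 30982 gene names on the array, with 301 of its 41000 probes, and each gene was read from its brightest probe. The cells had received the S154D mutant of human FXR and the bile acid CDCA (group S154D_CDCA), S154D and 0.1% DMSO (S154D_DMSO), the S154A mutant and CDCA (S154A_CDCA), or S154A and 0.1% DMSO (S154A_DMSO). There were 3 arrays in each of these 4 groups. FXR was expressed transiently for 24 h, and CDCA, labelled as 50 mM, or DMSO was then present for 24 h. All cells carried a transfected mutant receptor, so no array showed cells with wild-type FXR or with none. The promoter of the construct was not given in the sources used here, and all groups came from 1 cell line. The labels do not say that replicates were separate cultures, so p-values measure the spread between arrays, which may be technical.

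Zinc finger proteins of this family bind DNA through tandem fingers of the C2H2 type. Many carry a KRAB domain, which recruits the corepressor TRIM28 and, through it, the histone methyltransferase SETDB1 and HP1 proteins. Such proteins silence transposable elements and some genes, and their genes lie in clusters on chromosome 19 that expanded by duplication in primates. FXR, the bile acid receptor, carried in place of 1 serine either alanine, which takes up no phosphate, or aspartate, which is negatively charged as a phosphoserine is. The comparisons asked how CDCA changed transcripts in cells with each mutant and whether the mutants differed.

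Human probes met monkey transcripts, and some probes of different members share long runs of bases. Some members were read through the finger-coding part of the gene, where a linker and the start of each finger recur. The letters GAGAAACC, from the linker, occurred in the sense strand of 20 of 301 member probes (6.64%), against 94 of all 41000 probes (0.229%). The letters TGTGG, any base and AAAGC in a row, from the start of a finger, also occurred in 20 member probes (6.64%), against 51 of all probes (0.124%). Both strands were searched: the antisense letters were in 0 member probes for either motif, and in 59 and 3 of all probes. Both motifs were found together in 3 member probes and 7 of all probes, and at least 1 of them in 37 (12.3%) and 138 (0.337%). The following probes, 5′ to 3′ as the array design gives them, are shown because their genes are described below. Capitals mark the motifs.
ZNF91: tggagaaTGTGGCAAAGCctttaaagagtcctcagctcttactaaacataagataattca
ZNF493: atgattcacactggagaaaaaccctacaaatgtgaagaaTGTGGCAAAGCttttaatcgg
ZNF539: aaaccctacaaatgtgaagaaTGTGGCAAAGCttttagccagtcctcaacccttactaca
ZNF568: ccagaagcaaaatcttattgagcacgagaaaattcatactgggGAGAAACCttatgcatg
In build hg17 these lie at chr19:23334238-23334297 on the minus strand (ZNF91), chr19:21398910-21398969 on the plus strand (ZNF493), chr19:24101684-24101743 on the plus strand (ZNF539) and chr19:42132927-42132986 on the plus strand (ZNF568). The probes of ZNF493 and ZNF539 share a run of 37 bases. Signal from these genes can therefore not be told apart with certainty. Of all pairs of tested members, 26 pairs, made up of 14 members, shared a run of 20 bases or more, and the longest run was 38 bases, between ZNF100 and ZNF429.

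Members also differed widely in the base composition of their probes. A further pair of finger-coding probes shows a low and a high GC content, with each G and C in capitals.
ZNF121: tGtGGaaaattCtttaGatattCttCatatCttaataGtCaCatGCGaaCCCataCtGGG
ZNF358: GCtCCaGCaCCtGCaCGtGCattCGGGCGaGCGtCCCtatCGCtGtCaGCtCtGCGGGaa
The ZNF121 probe, at chr19:9538285-9538344 on the minus strand in hg17, has 35% GC. The ZNF358 probe, at chr19:7491214-7491273 on the plus strand, has 65%. Over the members tested, probe GC ran from 26.7% for ZNF160 to 78.3% for ZNF579, with a median of 41.7%. The median was the same for zinc finger genes on other chromosomes, but 53.3% for other genes of chromosome 19 and 45% for all genes tested. Here and below, zinc finger genes on other chromosomes include those whose probe had no chromosome given, so some of them may lie on chromosome 19. Whether a probe falls in an exon, an intron or a UTR was not annotated in the sources used here.

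The share of spots well above background ran from 61.6% to 79.8% over the 12 arrays, and arrays of the same group correlated at 0.977 to 0.994 over probes. The arrays lay on 4 slides, of which slide 3 held all groups, slide 2 held 2 of the 3 S154D_CDCA arrays, and slide 4 was scanned on another day. All 6 epithelial markers on the array, including KRT8 and KRT18, were well above background on all 12 arrays, as were 4 of 5 kidney markers. PTPRC, the defining leukocyte marker, was above background on 0 of 12 arrays, and COL1A2, a fibroblast collagen, also on 0 of 12. On all 12 arrays 5 of 7 fibroblast and mesenchymal markers, 3 of 5 leukocyte markers and 2 of 4 hepatocyte markers were well above background.

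Of the 192 members, 163 were tested, because 1 or more groups had all 3 arrays well above background at their probe. The other 29 were above background on at most 5 arrays, and 13 members were above it on no array. Among those tested, 143 were above background on all 12 arrays and 20 were not. Levels are given as log2 of the processed signal minus the array's 75th percentile, so 0 is the level of that percentile. Since probes differ in affinity, levels describe probes and do not rank the genes by transcript number. The median level was -1.75 for members, -1.33 for zinc finger genes on other chromosomes, -0.97 for other genes of chromosome 19 and -0.90 for all genes tested. A level above 0 was found for 27.0% of members and 40.1% of all genes. The highest signals came from ZNF579 (mean level 4.22), ZNF539 (3.67), ZNF708 (3.18) and ZNF607 (3.02). A green monkey RefSeq symbol or synonym existed for 114 of the tested members, with a median level of -2.20, and none was found for 49, with a median of -0.76.

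CDCA in S154D cells was the comparison in which members were called, that is, had an adjusted p under 0.05 in limma over all 20355 genes tested. Of 163 members 28 were called, against 10.2% of all genes tested. Of these, 26 (16.0%) were higher with CDCA, against 6.45% of all genes tested, and 2 (1.23%) were lower, against 3.74%. Zinc finger genes on other chromosomes had similar shares, with 32 of 219 higher (14.6%) and 4 lower (1.83%), and the difference between both sets was not tested. The median log2 change was 0.22 over members, 0.13 over zinc finger genes on other chromosomes, -0.20 over other genes of chromosome 19 and -0.01 over all genes, and 118 of 163 members were above 0. The 49 members with no green monkey symbol had a median of 0.33, with 12 called higher (24.5%) and 0 lower. The 114 with a symbol had 0.14, with 14 higher (12.3%) and 2 lower (1.75%), against 6.45% and 3.74% of all genes. After GC correction these medians were 0.15 and 0.049, and the difference between both sets was not tested. At an unadjusted p under 0.05, 61 members were higher and 9 lower, against 17.8% and 12.2% of all genes. The arrays of the groups did not overlap for 63 members that were higher and 12 that were lower, against 20% and 13.7% of all genes. Among the 143 members above background on all arrays, 24 were higher (16.8%) and 2 lower (1.40%), with a median of 0.21, against 6.94% and 4.21% of all genes with such probes. The threshold fell between ZNF223 (log2 change 0.50, limma adjusted p = 0.047) and ZNF599 (0.83, limma adjusted p = 0.051). ZNF599 was above background on 0 of 3 S154D_DMSO arrays, so its fold is a bound, and CDCA-treated cells had at least 1.44-fold more. It passed the filter only through S154D_CDCA, where it was high, so its rise was favoured by the filter.

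The count of 28 called members depended on the fit and on single arrays. It was 37 with quantile normalization, against 12.3% of all genes. With only probes above background on all 12 arrays in the fit, it was 30 of 143, against 14.5%. With the mean of all kept probes it was 26, against 9.21%, and without slide 4 it was 25, against 10.9%. It was 15 with normexp background correction, against 7.53% of all genes. By limma it was 0 with slide as a block (39 higher and 5 lower at an unadjusted p under 0.05, against 22.1% of all genes in either direction), with no filter on dim probes (60 and 7, against 18.4%), with only the arrays of both S154D groups in the fit (55 and 5, against 25.8%) and after correction for probe GC (31 and 3, against 19.8%). In those 4 fits 0 of all genes were called. Without slide 2 it was also 0 (19 and 6, against 15.3%), with 6 of all genes called. Left out in turn, S154D_DMSO 1, S154D_DMSO 3 and S154D_CDCA 3 each brought it to 0 (46 and 5, 46 and 8, and 47 and 5 at an unadjusted p under 0.05, against 23.7%, 22.0% and 21.4% of all genes), with 1, 0 and 0 of all genes called. It was 16 without S154D_CDCA 1 and 12 without S154D_CDCA 2, against 10.7% and 3.55% of all genes. It was 14, 17 and 11 without S154A_DMSO 1, 2 and 3, against 6.07%, 7.11% and 4.80%, and 17 without S154A_CDCA 1, against 6.15%. The median change of the members was above 0 in all of these, at 0.080 to 0.40 over the alternatives run.

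ZNF350, which encodes ZBRK1, a repressor that binds BRCA1, was among the members with the largest rises. Its levels were -3.15, -3.23 and -3.04 in S154D_CDCA, against -3.97, -4.08 and -4.11 in S154D_DMSO. It rose by 0.91 ± 0.15 on the log2 scale (SE of the fit, n = 3 arrays a group), or 1.88-fold, with a limma adjusted p of 0.027. ZNF675, also called TIZ and known to bind and inhibit TRAF6, rose by 1.03 ± 0.20, or 2.04-fold (limma adjusted p = 0.028). Its levels were 2.14, 1.47 and 1.93 in S154D_CDCA, against 0.60, 1.02 and 0.84 in S154D_DMSO. ZNF91, a KRAB protein that represses SVA retrotransposons, had levels of 0.37, -0.48 and -0.10 in S154D_CDCA, against -1.46, -0.59 and -1.08 in S154D_DMSO. It rose by 0.98 ± 0.26 (limma adjusted p = 0.043), although S154D_CDCA 2 was only slightly above S154D_DMSO 2. ZNF93, which represses LINE-1 elements, rose by 0.38 ± 0.10 (limma adjusted p = 0.037).

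The largest fitted rise was that of ZNF181, at 1.34 ± 0.31, or 2.53-fold (limma adjusted p = 0.032). Its levels were -4.36, -5.06 and -4.87 in S154D_CDCA, against -5.82, -6.43 and -6.07 in S154D_DMSO, and only 1 of the 3 DMSO arrays was well above background, so the DMSO level is poorly measured. ZNF577 rose by 1.12 ± 0.28 (limma adjusted p = 0.039), with levels of -3.92, -4.33 and -4.28, against -5.17, -5.39 and -5.34 in S154D_DMSO. It was not well above background on all 12 arrays, which limits its values in every comparison. ZNF329 rose by 1.09 ± 0.19 (limma adjusted p = 0.027), with -2.93, -3.36 and -3.14, against -4.29, -3.90 and -4.51. The largest rises were named only where the arrays of both groups did not overlap. ZNF121, ZNF627, ZNF613, ZNF83, ZNF493 and ZNF708 rose by 0.62 to 0.82, with limma adjusted p-values of 0.031 to 0.046. After GC correction their changes were 0.46 for ZNF121, 0.83 for ZNF627, 0.52 for ZNF613, 0.28 for ZNF83, 0.42 for ZNF493 and 0.25 for ZNF708. The probes used for ZNF493 and ZNF708 share a run of 33 bases, so their rises are not separate observations. A dimmer ZNF708 probe, also of 35% GC, had a fitted change of 0.16, and a dimmer ZNF493 probe one of 0.75. ZNF568, whose mouse counterpart silences a placental transcript of Igf2, rose by 0.55 ± 0.13 (limma adjusted p = 0.035).

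**Figure D1:**
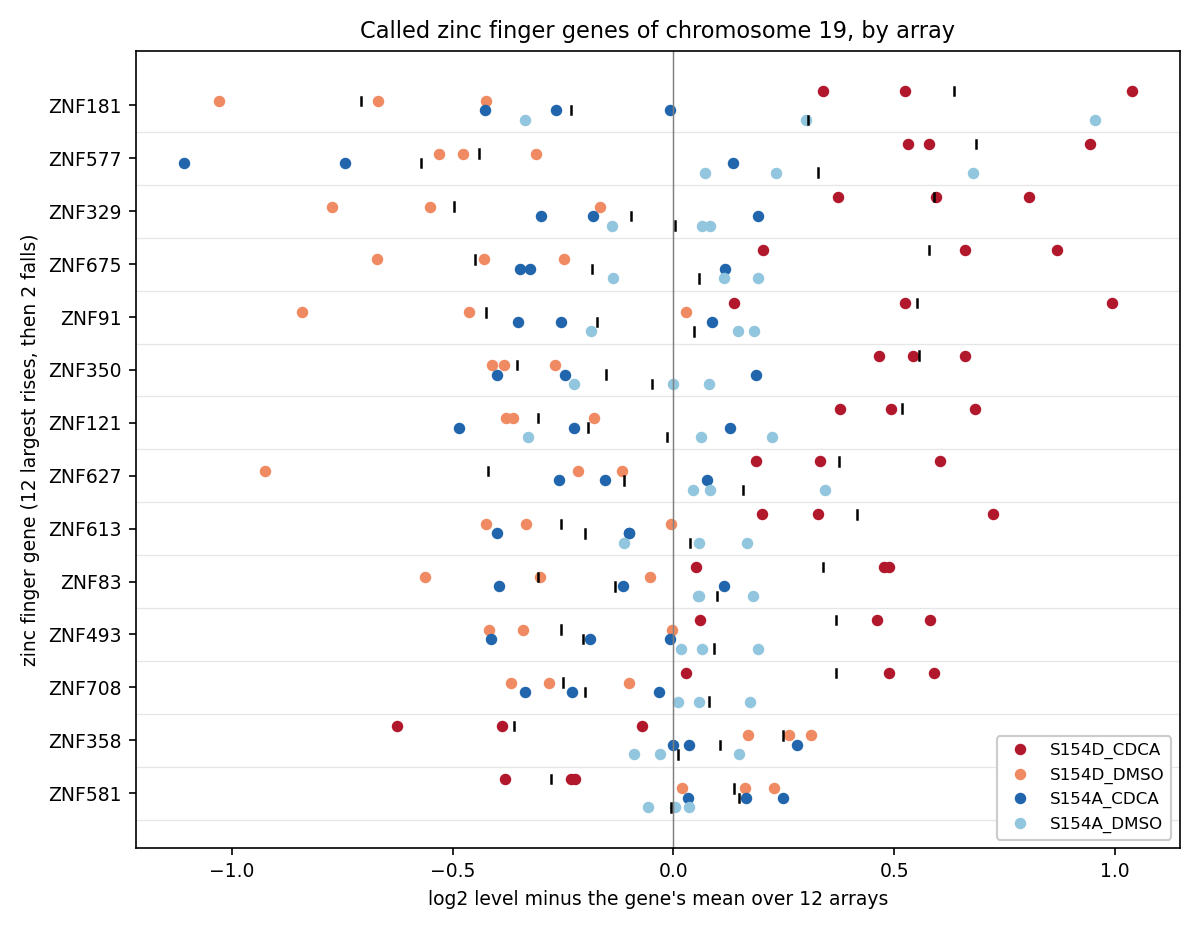
Level of the 12 called members with the largest rise and of the 2 called members that fell, on each array, as log2 level minus the gene's mean over 12 arrays (horizontal axis). Points are single arrays coloured by group and black ticks are group means (n = 3). Genes were chosen so that the S154D_CDCA and S154D_DMSO points do not overlap, and the size of the gap runs from ZNF181, with a fitted change of 1.34, to ZNF581, with -0.41.

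The members that fell were ZNF358 and ZNF581, and both had GC-rich probes. ZNF358 had levels of -0.84, -1.16 and -1.40 in S154D_CDCA, against -0.46, -0.60 and -0.51 in S154D_DMSO. It fell by 0.61 ± 0.15 (limma adjusted p = 0.035), with a probe of 65% GC. ZNF581, with 55% GC, fell by 0.41 ± 0.10 (limma adjusted p = 0.035): its levels were -0.65, -0.64 and -0.80, against -0.26, -0.40 and -0.19. ZNF575, with a probe of 70% GC, had the lowest fitted change of all members, -1.43 ± 0.67, and was not called (limma adjusted p = 0.182). Its S154D_CDCA arrays spread from -0.35 to 3.07, while its S154D_DMSO arrays lay between 2.25 and 3.02.

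Across members the change in S154D cells followed the GC of the probe. Over 163 members, the Pearson correlation of change with GC was -0.60 and the Spearman correlation -0.56, and over all 20355 genes tested they were -0.51 and -0.56. Genes are not independent replicates and share arrays, so these describe the fit and carry no p. At 35% to under 40% GC, 18 of 60 members (30%) were called higher and the median change was 0.39, against 18.2% and 0.30 for all genes in that bin. At 40% to under 45%, 6 of 51 members (11.8%) were higher with a median of 0.28, against 4.4% and 0.09. At 45% to under 50%, 1 of 30 members was higher (3.33%) and the median was 0.041, against 1.2% and -0.043 for all genes. At 50% or more, 2 of 20 members were lower (10%) and the median was -0.28, against 10.3% and -0.29 for all genes. From 35% to under 45% GC the members' medians thus lay above those of all genes of like GC, and at 50% or more the medians nearly coincided. Zinc finger genes on other chromosomes had a Pearson correlation with GC of -0.59. Their medians were 0.33 at 35% to under 40%, 0.12 at 40% to under 45% and -0.37 at 50% or more. Of them, 27.8% were called higher at 35% to under 40% and 7.69% at 40% to under 45%. Below 35% there were only 2 members, ZNF160 and ZNF577.

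**Figure D2:**
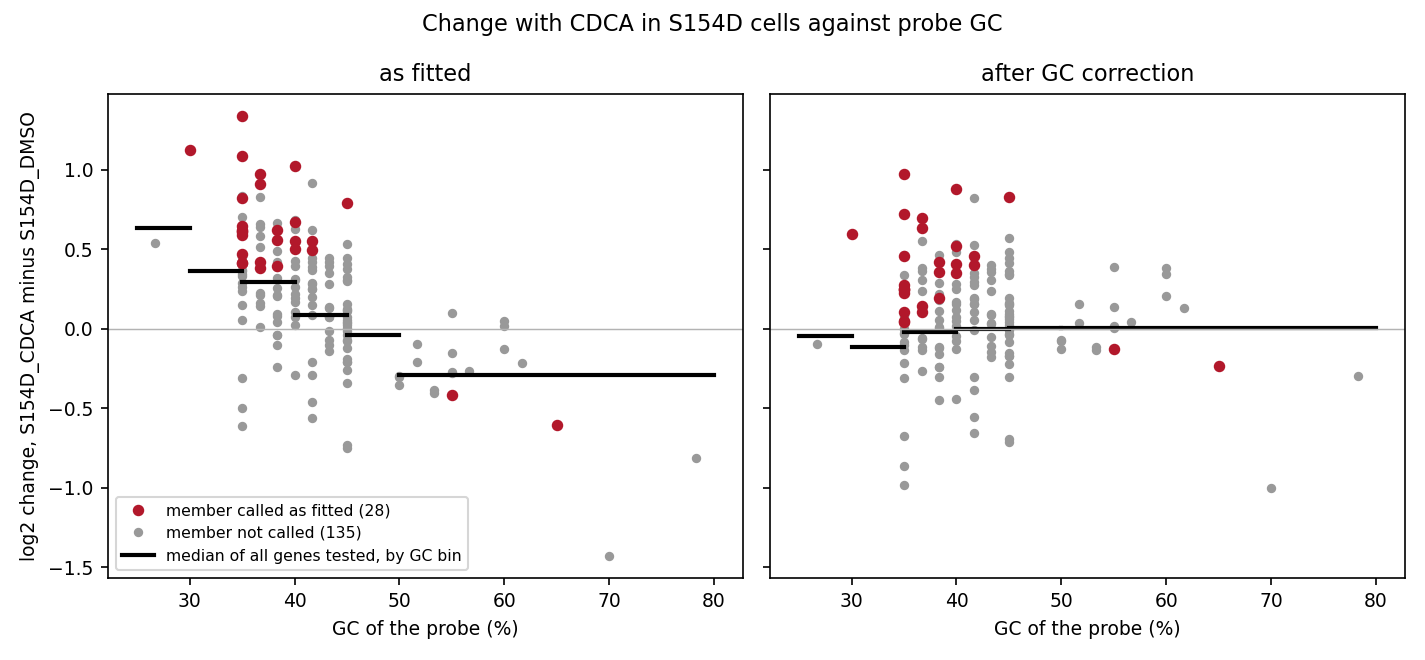
Log2 change, S154D_CDCA minus S154D_DMSO, of the 163 members (vertical axis) against the GC of their probe (horizontal axis), as fitted (left) and after correction for probe GC (right). Points are members, red where called as fitted (28), and black lines are medians of all genes tested by GC bin. As fitted, the line falls with GC, with a median of 0.64 under 30% and of -0.29 at 50% or more.

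When each array's dependence on probe GC was removed by a smooth curve, 0 members and 0 of all genes were called (limma), with 31 members higher and 3 lower at an unadjusted p under 0.05. Over all genes these unadjusted shares were 9.83% higher and 9.97% lower. The median change of the members was then 0.09, against -0.003 over all genes and 0.024 over zinc finger genes on other chromosomes, and 106 of 163 members were above 0. The correlation of change with GC over members was -0.15 (Pearson) and -0.08 (Spearman) after correction. ZNF181 had a corrected change of 0.97, ZNF675 of 0.88, ZNF329 of 0.72, ZNF91 of 0.70, ZNF350 of 0.63 and ZNF577 of 0.60. ZNF547 had a corrected change of 0.044 and ZNF71 of 0.049, although both had been called higher. The falls of ZNF358 and ZNF581 were -0.23 and -0.13 after correction.

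The slope of signal on probe GC varied between arrays of the same group. It was -0.006, -0.16 and -0.30 log2 units per 10 points of GC on the S154D_CDCA arrays 1 to 3, against 0.087, 0.18 and 0.063 on the S154D_DMSO arrays. The S154A_CDCA arrays had slopes of -0.091, 0.10 and -0.002, against 0.034, 0.14 and -0.046 for S154A_DMSO. The S154D_CDCA slopes all lay below the S154D_DMSO slopes, whereas the S154A groups overlapped. The median level of the members was -1.64, -1.76 and -1.71 on the S154D_CDCA arrays, against -1.85, -1.78 and -1.94 on the S154D_DMSO arrays. Array S154D_CDCA 1 thus had the highest member median of the 12 arrays and nearly no linear slope on GC. After the GC correction by a smooth curve its member median was -1.77, and the highest was -1.71, on S154D_CDCA 2. The part of the GC slope in the members' change was not tested beyond the correction above.

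**Figure D3:**
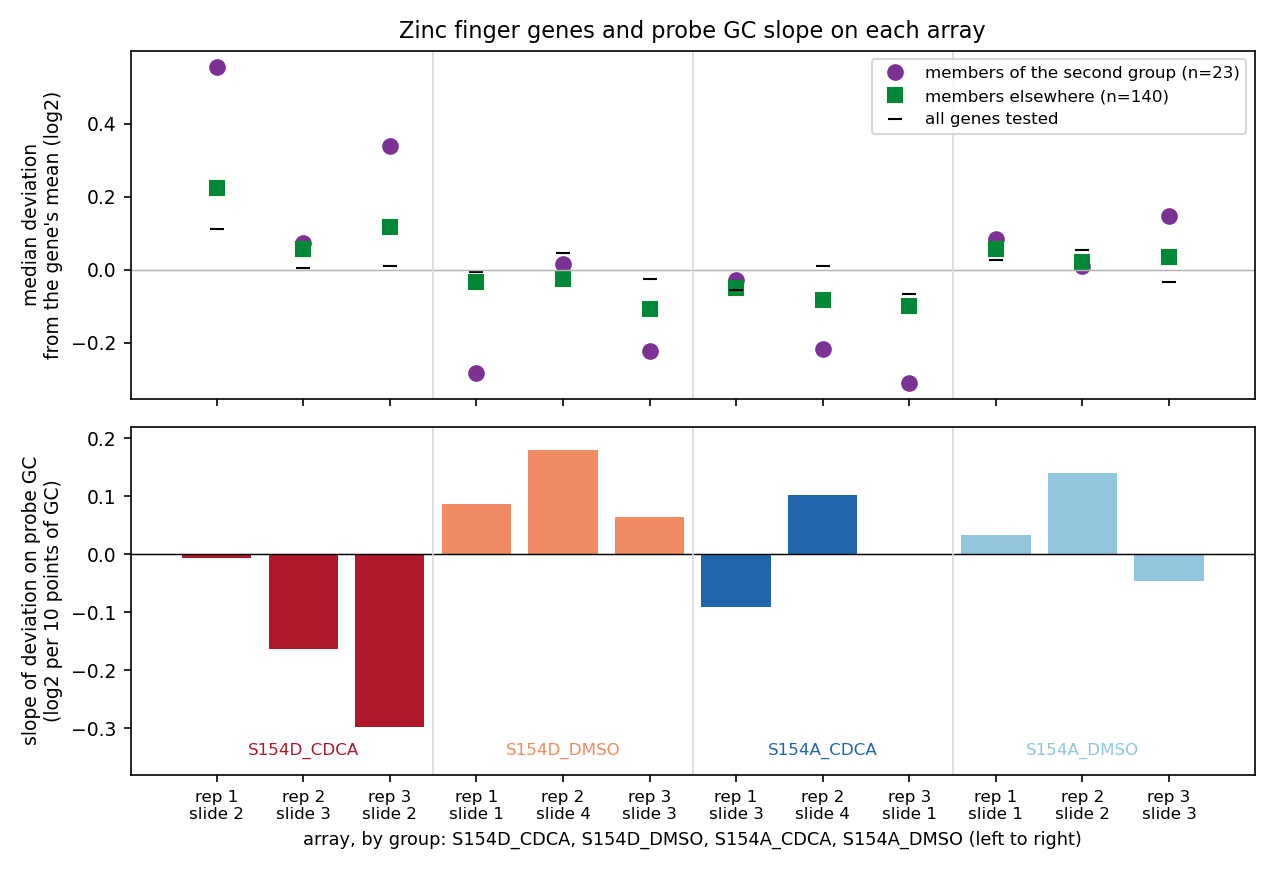
Upper panel, median deviation of member levels from each gene's mean over 12 arrays (log2) on each array, for the 23 members of the second position group, the 140 members elsewhere and all genes tested. Lower panel, slope of the deviation on probe GC over all kept probes (log2 per 10 percentage points of GC), with bars coloured by group. S154D_CDCA 1 has the highest points of the upper panel, 0.56 and 0.22, and a linear slope near 0. After GC correction, which is not drawn, these points would be at 0.35 and 0.10.

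Probes of the same gene gave a comparison that held the transcript's name fixed. More than 1 probe was kept for 48 members, and in 19 of them the fitted changes in S154D cells had both signs. In 43 the probes differed in GC, and the change was larger at the lower GC in 31 and at the higher GC in 12. The difference, lowest minus highest GC, had a median of 0.34, and 0.62 over the 9 genes whose probes differed by 10 points or more, where 8 of 9 had the larger change at the lower GC. The probes also differed in level, by a median of 2.54 log2 units. ZNF146, which encodes a protein of zinc fingers alone, had a fitted change of 1.66 at a dim probe of 36.7% GC and of 0.43 at its brightest probe of 40% GC. ZNF575 had -0.01 at 55% GC and -1.43 at 70% GC. In ZNF160 the 4 probes ran from -0.47 at 38.3% GC to 1.09 at 41.7% GC, so GC alone did not order them. ZNF430 had changes of 0.42 at 35% GC and 0.37 at 45% GC. ZNF473, which acts in the processing of histone mRNA, had changes of 0.03 and 0.16 at its probes, and ZNF347 had 0.01 and -0.10.

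**Figure D4:**
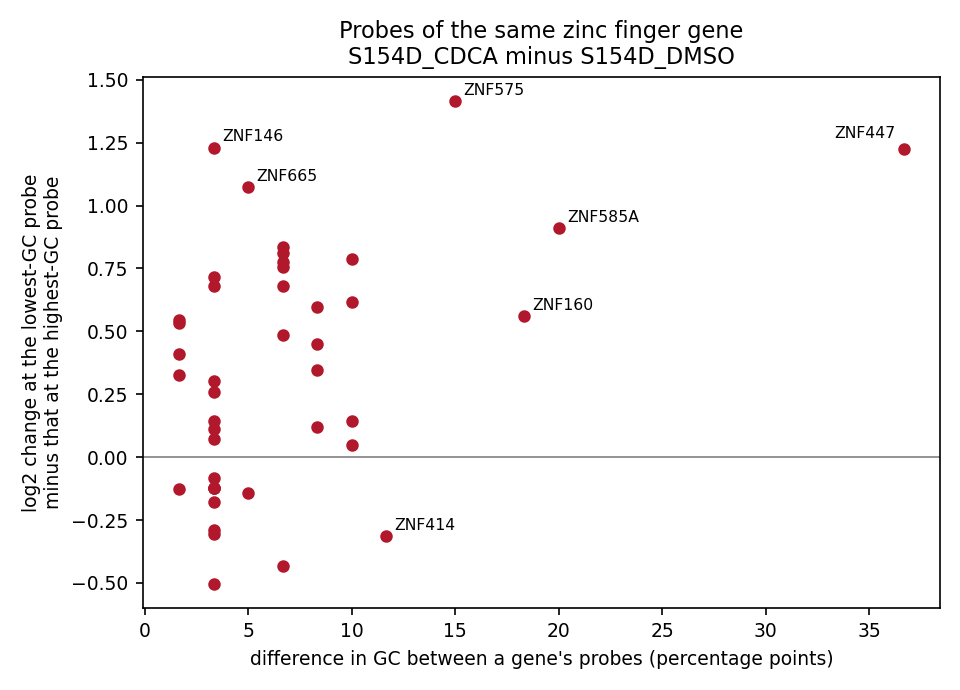
For the 43 members whose kept probes differ in GC, the change (S154D_CDCA minus S154D_DMSO, log2) at the lowest-GC probe minus that at the highest-GC probe (vertical axis), against the difference in GC (horizontal axis, percentage points). Each point is 1 gene. Of the points, 31 lie above 0 and 12 below it, and ZNF414 is the only one below 0 at 10 points or more.

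Position along the chromosome was described in groups of neighbouring members separated by gaps of more than 2 Mb, a division chosen after the values were seen. The group from 19.65 to 24.10 Mb of hg17 had 26 members, of which 23 were tested. Its median change in S154D cells was 0.52, against 0.15 over the 140 members elsewhere, with 21 of 23 above 0 and 7 called higher, against 19 of 140 elsewhere and 6.45% of all genes. The 7 were ZNF675, ZNF91, ZNF493, ZNF708, ZNF539, ZNF626 and ZNF93. The other 4 groups of 10 or more had medians of 0.20 (7.03 to 12.55 Mb), 0.22 (39.87 to 42.92 Mb), 0.21 (47.28 to 50.27 Mb) and 0.10 (52.72 to 63.72 Mb). After GC correction the 19.65 to 24.10 Mb group had a median of 0.34 with 21 of 23 above 0, against 0.056 for members elsewhere. The exceptions in the group were ZNF101 (-0.56, limma adjusted p = 0.096) and ZNF506 (-0.26, limma adjusted p = 0.116). No test was made over the group, since it was chosen by its values.

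**Figure D5:**
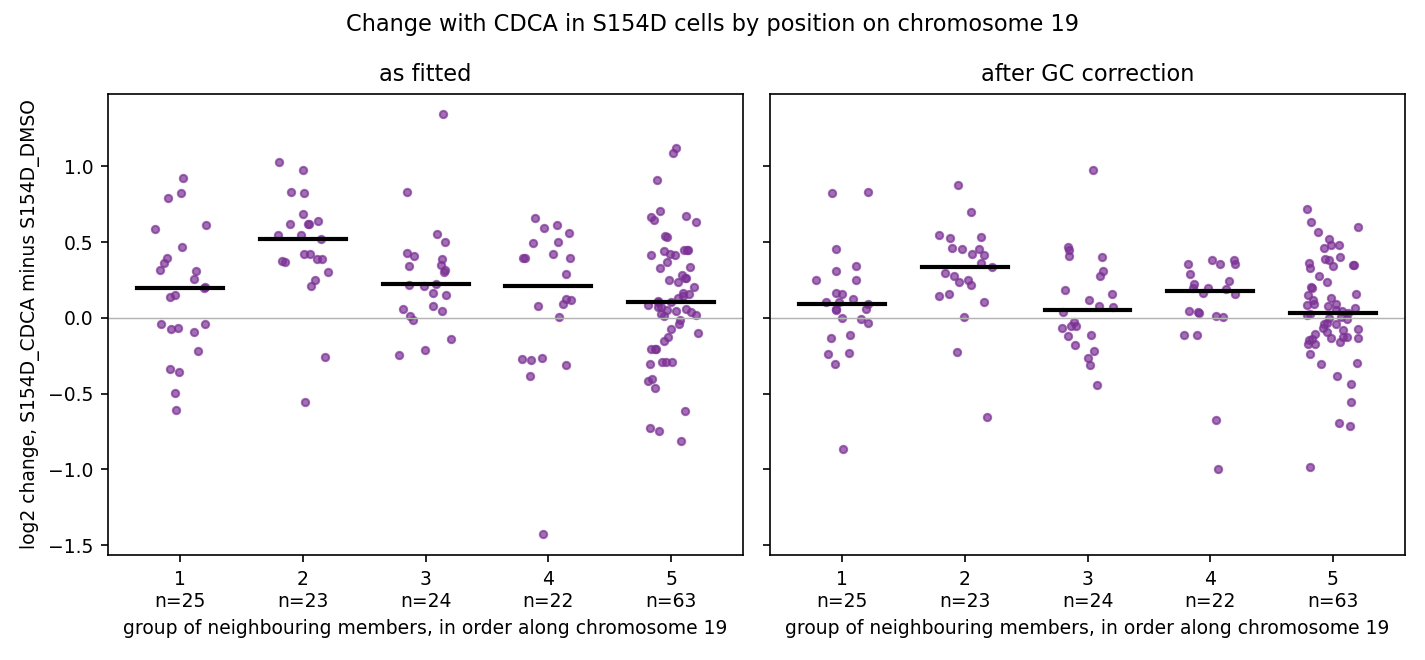
Log2 change, S154D_CDCA minus S154D_DMSO, of members in the 5 position groups with 10 or more tested members, in order along chromosome 19, as fitted (left) and after GC correction (right). Points are members and black lines are medians. The second group has the highest median in both panels, 0.52 as fitted and 0.34 after correction.

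The higher change in the 19.65 to 24.10 Mb group was seen with each S154D array left out, with medians of 0.43 to 0.62, against 0.10 to 0.22 for members elsewhere. Within slide 3, which holds 1 array of each group and so has no replicate, it was 0.40, against 0.16 for members elsewhere. These settings were added after the values were seen. The group was chosen by its values on these same arrays, so they are no test of it. Each fit with 1 array left out also kept an S154D_CDCA array of slide 2. On the S154D_CDCA arrays the group's median deviation from each gene's mean was 0.56, 0.074 and 0.34, against -0.28, 0.015 and -0.22 on the S154D_DMSO arrays. After GC correction these were 0.35, 0.019 and 0.28, against -0.22, 0.074 and -0.17, so the groups then overlapped, with S154D_CDCA 2 below S154D_DMSO 2. On S154A_CDCA arrays it was -0.028, -0.22 and -0.31, against 0.084, 0.011 and 0.15 on S154A_DMSO arrays, lower on each S154A_CDCA array. The 30 other gene names placed in the interval had a median of 0.38 in S154D cells, and 0.29 after GC correction. Of the group's 23 members, 4 had a green monkey symbol, against 110 of the 140 members elsewhere. Of the 30 other gene names in the interval 0 had one, and what they read in the monkey was not examined.

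Most probes that share sequence belonged to this interval. Of the 14 members sharing a run of 20 bases or more, 12 lay in it, with a median level of 2.55, against -3.38 for the 11 members there that shared none. Those 12 had a median change of 0.55 in S154D cells with all 12 above 0, and the 11 had a median of 0.42 with 9 above 0. The probes sharing runs may read the same transcripts, so the 12 are not separate observations. Over all members, the 26 with a finger or linker motif had a median of 0.41, against 0.16 for the 137 without, and 0.25 against 0.057 after GC correction. Of the 26, 11 lay in the 19.65 to 24.10 Mb interval, and among members elsewhere the medians were 0.26 with a motif (15 members) and 0.14 without (125). Outside the members, 66 genes with such a motif in their probe had a median of 0.34 in S154D cells and 0.24 after GC correction, against -0.009 and -0.003 for all genes. Zinc finger genes on other chromosomes had medians of 0.36 with a motif (19 genes) and 0.11 without (200 genes), and 0.26 and 0.001 after correction. The 19 are among the 66, so both medians are not separate observations. How much of the change is shared signal from repeated finger sequence was not tested.

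The pattern of ZNF181 over the 12 arrays was most like those of ZNF443 (Pearson r = 0.90), ZNF461 (0.88) and ZNF547 (0.86). ZNF443 rose by 0.47 ± 0.11 in S154D cells, ZNF461 by 0.50 ± 0.12 and ZNF547 by 0.41 ± 0.10 (limma adjusted p = 0.035, 0.034 and 0.039). Arrays are shared by all of these, so the likeness includes anything that moved whole arrays.

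In S154A cells, CDCA changed 0 of 163 members at an adjusted p under 0.05 in limma, against 0.133% of all genes tested (0.128% higher and 0.00491% lower). At an unadjusted p under 0.05, 0 members were higher and 12 lower, against 1.71% and 4.33% of all genes. The median change was -0.13, against -0.04 over all genes, and 33 of 163 members were above 0. The arrays of both groups did not overlap for 37 members that were lower and 2 that were higher, against 8.21% and 3.7% of all genes. After GC correction the median was -0.086, with 0 members higher and 8 lower at an unadjusted p under 0.05, against 2.91% and 3.4% of all genes. ZNF491 had the smallest p: its levels were -8.19, -7.34 and -8.60 in S154A_CDCA, where 0 of 3 arrays were well above background, against -6.04, -3.97 and -5.00 in S154A_DMSO, where all 3 were. From the S154A_DMSO mean it was at least 1.96-fold lower with CDCA, and it was not called (limma adjusted p = 0.137). S154A_DMSO 1, at -6.04, itself lay below the level used as the bound, -5.98. ZNF491 passed the filter on S154A_DMSO, where it was high, so a fall from that group was favoured by the filter. ZNF702 had -3.48, -3.74 and -3.55 in S154A_CDCA, against -2.95, -3.30 and -3.24 in S154A_DMSO, a change of -0.43 ± 0.13 (limma adjusted p = 0.692). ZNF577 had a fitted change of -0.90 ± 0.28 (limma adjusted p = 0.729) and ZNF682, which was near background, of -1.44 ± 0.48 (limma adjusted p = 0.777). ZNF85 showed how 1 spot can set a value: it was at -7.52 on S154A_DMSO 3 and between 0.32 and 1.54 on the other 11 arrays, so its fitted change of 2.64 ± 1.77 rests on that spot.

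Without CDCA, S154D and S154A cells differed in 0 members by limma, against 0% of all genes tested, the smallest adjusted p over all genes being 0.996. At an unadjusted p under 0.05, 0 members were higher in S154D_DMSO and 17 lower, against 1.18% and 3.16% of all genes. The median difference was -0.11, against 0.00 over all genes, and -0.057 after GC correction, with 0 members higher and 10 lower at an unadjusted p under 0.05, against 1.54% and 2.05%. The groups did not overlap for 4 members that were higher and 30 that were lower, against 4.82% and 6.23% of all genes. ZNF491 was above background on 0 of 3 S154D_DMSO arrays and was at least 2.08-fold lower there than the S154A_DMSO mean (limma adjusted p = 0.996). Here too the filter, passed on S154A_DMSO, favoured a lower value in the other group. ZNF702 had -3.65, -3.66 and -3.72 in S154D_DMSO, against -2.95, -3.30 and -3.24 in S154A_DMSO, a difference of -0.51 ± 0.13 (limma adjusted p = 0.996). The fitted difference was -0.29 ± 0.09 for ZNF700 and -1.01 ± 0.31 for ZNF181 (limma adjusted p = 0.996 for each). This comparison shares the S154D_DMSO and S154A_DMSO arrays with the CDCA comparisons above.

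With CDCA, 0 members differed between S154D and S154A by limma, against 0.403% of all genes tested (0.0737% higher and 0.329% lower). At an unadjusted p under 0.05, 60 members were higher in S154D_CDCA and 4 lower, against 15.8% and 7.82% of all genes. The median difference was 0.25, against 0.06 over all genes, with 126 of 163 above 0. After GC correction it was 0.11, with 31 members higher and 3 lower at an unadjusted p under 0.05, against 8.72% and 8.84%. The groups did not overlap for 71 members that were higher and 4 that were lower, against 20.9% and 7.63% of all genes. ZNF180 had -1.27, -1.42 and -1.38 in S154D_CDCA, against -1.85, -1.77 and -2.13 in S154A_CDCA, a difference of 0.56 ± 0.11 that was not called (limma adjusted p = 0.060). ZNF700 had -1.03, -1.16 and -1.01, against -1.49, -1.45 and -1.67, a difference of 0.47 ± 0.09 (limma adjusted p = 0.062). In both genes the groups were apart. The fitted difference was 0.71 ± 0.15 for ZNF350 (limma adjusted p = 0.068) and for ZNF577 1.26 ± 0.28 (limma adjusted p = 0.074). Within slide 3, the 1 slide that held all groups, the median difference of the members was 0.095, against 0.081 over all genes, with 115 of 163 above 0.

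The response to CDCA was then compared between the mutants, as the change in S154D cells minus that in S154A cells. By limma 0 members were called, against 0.147% of all genes tested (0.0442% higher and 0.103% lower), with 63 higher and 4 lower at an unadjusted p under 0.05, against 15.1% and 7.31%. The median difference of responses was 0.35, against 0.04 over all genes, with 123 of 163 above 0. After GC correction it was 0.16, with 41 members higher and 1 lower at an unadjusted p under 0.05, against 8.28% and 8.12%. ZNF700 came nearest to the threshold, with a difference of 0.76 ± 0.13 (95% interval 0.47 to 1.05, limma adjusted p = 0.052). ZNF577, which was not well above background on all arrays, followed with 2.02 ± 0.40 (interval 1.14 to 2.91, limma adjusted p = 0.063). Next came ZNF180 with 0.74 ± 0.15 (limma adjusted p = 0.067) and ZNF350 with 1.01 ± 0.21 (limma adjusted p = 0.070). The calls in S154D cells and their lack in S154A cells therefore do not show that any member responded differently with the mutants.

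The corepressor machinery through which KRAB zinc finger proteins act was listed alongside, and 32 of its 33 genes were tested. In S154D cells 2 of them were called higher and 2 lower with CDCA (6.25% each), against 6.45% and 3.74% of all genes, with a median of -0.004 and 16 of 32 above 0, and in the other comparisons 0 were called by limma. C3orf63, a subunit of the HUSH silencing complex, rose by 0.59 ± 0.11 (35% GC, limma adjusted p = 0.027), with levels of -0.78, -0.80 and -0.74 in S154D_CDCA, against -1.46, -1.35 and -1.28 in S154D_DMSO. CBX1, an HP1 protein, rose by 0.44 ± 0.11 (35% GC, limma adjusted p = 0.034). CHD4, the remodelling ATPase of the NuRD complex, fell by 0.53 ± 0.13 (53.3% GC), and SUV39H1, a histone H3 methyltransferase, fell by 0.40 ± 0.11 (55% GC), with limma adjusted p-values of 0.035 and 0.045. After GC correction the changes were 0.22 for C3orf63, 0.076 for CBX1, -0.26 for CHD4 and -0.11 for SUV39H1. TRIM28 itself had a fitted change of -0.15 ± 0.15 (limma adjusted p = 0.540) and SETDB1 of 0.087 ± 0.087 (limma adjusted p = 0.535).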

How the data were processed

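RNA of 12 samples was labelled with Cy3 and hybridised to 1-colour arrays. The authors deposited scanner files holding, per the file headers, a background-subtracted processed intensity from Agilent Feature Extraction 9.5.3.1 and coordinates in hg17, whereas the submitters' processing notes name version 12. The deposited series table holds the same intensity values, unscaled. Outlier spots, 66 to 196 an array, were removed. Each array's 75th percentile over non-control spots (1234 to 2107) was then removed from the intensity after log2 transformation. The number of arrays limits the precision. A probe was kept where 1 or more groups had 3 of 3 arrays well above background, and the brightest kept probe stood for a gene name (20355 genes).

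A model of 4 group means over the 12 arrays was fitted in limma 3.58.1 under R 4.3.3, with two-sided tests and Benjamini-Hochberg adjustment over all genes tested within a comparison. Errors are standard errors of the fit and intervals are at 95%. Probe GC was corrected by subtracting, per array, a lowess curve (span 0.3) of the deviation from each probe's mean on GC. The fit was tested on simulated arrays with independent noise, without slide effects or a GC slope. The correction was tested on a GC slope put into a simulated array. These simulations do not check the calls made here against slide or GC effects. Where no array of a group was above background, folds are given as at least the fold over the dimmest probe above background.

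The members, the list of cofactors, the markers and the rule for named genes were chosen with earlier results of these data known. The rule named the 12 largest rises and 6 largest falls among called members whose groups do not overlap (2 fell), the 4 smallest p in each other comparison, the 4 brightest members, the 4 highest and 4 lowest in probe GC, the 3 whose probes differ most and least, ZNF181, ZNF491 and ZNF702, called cofactors, and the 3 members most like the largest rise over the arrays (Pearson r). ZNF71, ZNF85, ZNF93, ZNF100, ZNF101, ZNF223, ZNF429, ZNF506, ZNF568, ZNF599 and ZNF626 were named after their values were seen, as were the examples TRIM28 and SETDB1. Names were matched to green monkey RefSeq symbols of 10269 of the genes tested.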

Additional observations from a re-analysis of the deposited data

How the results depend on the processing

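Alternatives were limma fits with 1 choice changed, or 2 where named. Members called in S154D cells (28) were 37 with quantile normalization, 30 among probes above background on all 12 arrays, 26 with the mean of all kept probes and 25 without slide 4. They were 15 with normexp. They were 0 with no filter, with slide as a block, with only the 2 groups compared, without slide 2 and with GC correction. The shares of all genes for these counts are given above. On the series table without scaling they were also 0, with 34 higher and 0 lower at an unadjusted p under 0.05. Over all genes that unadjusted share was 10.1% in either direction. With GC correction and slide as a block they were 0 (13 and 2, against 15.7%). Replicate numbers did not pair the samples (12 correlations of same-numbered arrays, -0.23 to 0.36, with 5 above 0.1), and the replicate block gave 0 called (60 and 9), also with GC correction (32 and 4), but 1 between the mutants with CDCA. In S154D cells leaving out 1 array gave 0 to 28 called, and it was 28 without S154A_CDCA 2, against 10.7% of all genes. The median change in S154D cells (0.22) was 0.13 with normexp, 0.40 on the series table, where all genes moved by 0.18, 0.094 with GC correction alone or with the replicate block, 0.080 with GC correction and slide, 0.12 without slide 2, and 0.19 to 0.28 with 1 array left out. In S154A cells 1 member was called on the series table, against 0.0737% of all genes. The median (-0.13) was -0.23 there and also -0.23 within slide 1, a setting added after seeing the data. It was -0.16 to -0.12 with 1 array left out. Between the mutants in DMSO 1 member was called on the series table, against 0.00491% of all genes. The median (-0.11) was -0.34 there, where all genes moved by -0.24. It was -0.18 within slide 1, and -0.14 to -0.08 with 1 array left out. Between the mutants with CDCA 2 were called with quantile normalization, against 0.963% of all genes. Among probes above background on all 12 arrays 2 were called, against 0.822%. With 1 array left out 0 to 2 were called. It was 2 without S154A_CDCA 1, against 0.270% of all genes, and 2 without S154D_CDCA 1, against 1.40%. The median (0.25) was 0.11 with GC correction in each of 3 forms, 0.17 without slide 2 and 0.095 within slide 3. It was 0.21 to 0.30 with 1 array left out. For the difference of responses 0 to 2 were called with 1 array left out, and it was 2 without S154A_CDCA 1, against 0.329% of all genes. The difference had 1 called with quantile normalization, against 0.580%, and 1 among probes above background on all 12 arrays, against 0.649%. Its median (0.35) was 0.28 with normexp, 0.63 on the series table, 0.16 with GC correction alone or with the replicate block, 0.19 with GC correction and slide, 0.41 without slide 4, 0.28 within slide 3, and 0.30 to 0.40 with 1 array left out. Changes in S154D cells that reversed were those of ZNF491 (-0.12 with normexp, -0.43 with slide, -0.37 with GC correction and slide, -0.11 without slide 2, -0.28 within slide 3, -0.22 to 0.63 with 1 array left out), ZNF347 (0.081 on the series table, -0.33 to 0.085 with 1 array left out), ZNF134 (-0.021 for the mean of its probes, -0.060 with GC correction and slide), ZNF473 (-0.0021 with slide), ZNF579 (0.025 with GC correction and slide), ZNF607 (0.037 with GC correction alone or with the replicate block, 0.027 with slide), ZNF414 (0.13 with GC correction alone or with the replicate block), ZNF160 (-0.097 with GC correction alone or with the replicate block, -0.0066 with slide) and ZNF702 (-0.033 with GC correction alone or with the replicate block, -0.073 with slide). In S154A cells ZNF577 was at 0.064 within slide 3. The causes were not tested. Of the other values recomputed, 213 for whole comparisons and 844 for named genes kept their direction and their side of the threshold or stayed within the spread between arrays, whereas of those for named genes 242 were no longer past the threshold, 18 newly passed it and 26 moved beyond the spread. Of the 14 called members plotted by array, ZNF627 was called in the fewest alternatives with a test (5 of 26) and ZNF329, ZNF350 and ZNF675 in the most (14 of 26), and ZNF181 in 8 of 25. Slide 2 held 2 of the 3 S154D_CDCA arrays and none of S154D_DMSO, and dim members near background are limited by signal.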
